A study of Homo sapiens with 4 samples.

Results

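The 10 genes described here are keratins of suprabasal and simple epithelium, taken by name from the 60649 genes of the count table. KRT1, KRT10, KRT4, KRT13 and KRT80 belong to suprabasal layers of epidermis or mucosa, and KRT7, KRT8, KRT18, KRT19 and KRT23 to simple epithelium. RNA sequencing measured them in FaDu, an established cell line that derives from a hypopharyngeal squamous carcinoma. The compared cells overexpressed TINCR-HA-FLAG, in which TINCR carries HA and FLAG tags, or held an empty vector, with 2 libraries in each group. All of them grew in MEM alpha with 10% fetal bovine serum. The series calls the replicates technical, so the p-values reflect library-to-library spread alone. The labels do not name the construct's promoter or say whether the cells were clones.

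Keratins are the intermediate filament proteins of epithelial cells, and a filament forms from pairs of an acidic type I and a basic type II keratin. Basal cells of stratified epithelium make KRT5 with KRT14. Cells that leave the basal layer change to other pairs, KRT1 with KRT10 in epidermis and KRT4 with KRT13 in the mucosa of mouth, pharynx and oesophagus. Single-layered epithelium is built on KRT8 and KRT18, with KRT7, KRT19 or both added according to the organ. Squamous carcinoma lines often hold basal and simple keratins side by side.

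Library totals ranged from 17069533 to 22331602 counts. TINCR had 1921 and 2943 counts with TINCR-HA-FLAG, against 68 and 64 with the empty vector, a 30.6-fold difference by edgeR (adjusted p = 7.2e-07). The 8 squamous markers examined, with TP63 and KRT5 among them, were all expressed and summed to 4554 and 5217 CPM (counts scaled to a common library size) with TINCR-HA-FLAG and to 5655 and 6423 CPM with the empty vector. The 11 fibroblast markers summed to 63.6 and 63.9 CPM with TINCR-HA-FLAG, against 60.8 and 54.9 CPM, and COL1A1 among them averaged 33.6 CPM, against 25.5 CPM. The 6 endothelial markers summed to 14.3 and 13.6 CPM, against 10.9 and 11.1 CPM, and the 6 leukocyte markers to 10.3 and 13.7 CPM, against 12.7 and 13.9 CPM. No marker of these lists was at 0 in all libraries. PTPRC, which defines leukocytes, had 6 and 3 counts with TINCR-HA-FLAG, against 4 and 3. PECAM1, which defines endothelium, had 8 and 4 counts, against 7 and 5. Most of these sums came from other members. VWF of the endothelial list had 244 and 272 counts, against 156 and 176, and its groups did not overlap (edgeR adjusted p = 0.48). CDH5, which encodes vascular endothelial cadherin, was not in that list. It had 34.6 and 38.6 CPM with TINCR-HA-FLAG, against 12.2 and 13.7 CPM (edgeR adjusted p = 0.0012). In the leukocyte list CD14 had 105 and 201 counts, against 133 and 145. LYZ had 61 and 84 counts, against 69 and 77. Mitochondrial genes took 11.4% and 8.66% of counts with TINCR-HA-FLAG and 9.43% and 7.58% with the empty vector. The part of these differences in the keratin results was not tested.

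Keratins of a type resemble each other along the start of their central rod domain. The stretch of coding sequence below was chosen for its likeness between genes, so it does not show how far their counts can be told apart. The 60 coding bases of KRT13 with the fewest differences to KRT19, KRT15, KRT14, KRT17, KRT16 and KRT10 in sum lie in exon 1, and they are shown with the matching stretches of 5 of these genes (GRCh38, minus strand, GENCODE release 29 transcripts). Capitals mark bases that differ from KRT13. They lie at chr17:41505173-41505232 in KRT13, chr17:41527942-41528001 in KRT19, chr17:41518447-41518506 in KRT15, chr17:41586424-41586483 in KRT14, chr17:41624192-41624251 in KRT17 and chr17:40822082-40822141 in KRT10.
KRT13: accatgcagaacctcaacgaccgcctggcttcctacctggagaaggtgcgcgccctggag
KRT19: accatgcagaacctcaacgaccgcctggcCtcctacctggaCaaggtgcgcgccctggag
KRT17: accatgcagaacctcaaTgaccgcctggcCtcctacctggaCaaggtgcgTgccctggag
KRT15: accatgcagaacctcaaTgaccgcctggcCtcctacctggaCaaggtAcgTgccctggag
KRT14: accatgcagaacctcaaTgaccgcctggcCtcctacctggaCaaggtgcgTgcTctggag
KRT10: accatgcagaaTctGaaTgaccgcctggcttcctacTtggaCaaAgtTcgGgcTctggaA

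In this stretch KRT19 differed from KRT13 at 2 bases, KRT17 at 4, KRT15 and KRT14 at 5 each and KRT10 at 10. No window of 50 bases of the KRT13 transcript occurred in KRT17, which is abundant in these libraries. Along the whole principal transcript of KRT13, 303 of 1650 windows of 50 bases also occurred in another annotated gene. Of these, 286 were shared with AC019349.1, a transcript on the opposite strand that had 0 counts in all 4 libraries, and 17 with KRT15. KRT4 and KRT1 shared no such window with any other gene. In KRT8 36.9% of windows were shared, and 6.98% with genes other than keratin pseudogenes. In KRT18 47.6% were shared, and 21.8% with such genes. The annotated bounds of KRT8 and KRT18 overlap on opposite strands, and 326 windows of KRT18 also occurred in KRT8 transcripts. KRT7 shared 10.8% of its windows, mostly with its antisense transcript KRT7-AS. The share was 4.95% in KRT23, 1.79% in KRT19, 0.434% in KRT10 and 0.420% in KRT80. The sources used here do not say how reads that match several genes were counted.

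KRT13, the type I keratin of suprabasal mucosa, rose with TINCR-HA-FLAG and was the 1 member called. Its type II partner KRT4 had a smaller positive change that passed in DESeq2 and not in edgeR, and the simple epithelium keratins KRT8, KRT18 and KRT19 were abundant with fold changes near 1. KRT1 was at the limit of detection in every library. A gene is called at an adjusted p under 0.05 in the edgeR quasi-likelihood test over all 18771 genes that passed the filter on low counts. Of the 10 keratins 9 passed that filter, 1 was called higher and 0 lower. Over all genes tested, 0.549% were called, 0.453% higher and 0.0959% lower. DESeq2 called 2 members higher and 0 lower, beside 1.01% of all genes in either direction. At an unadjusted edgeR p under 0.05, 2 members were higher and 0 lower. Over all 18771 genes tested, 1104 were higher and 809 lower at that threshold, or 10.2% in either direction.

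**Figure D1:**
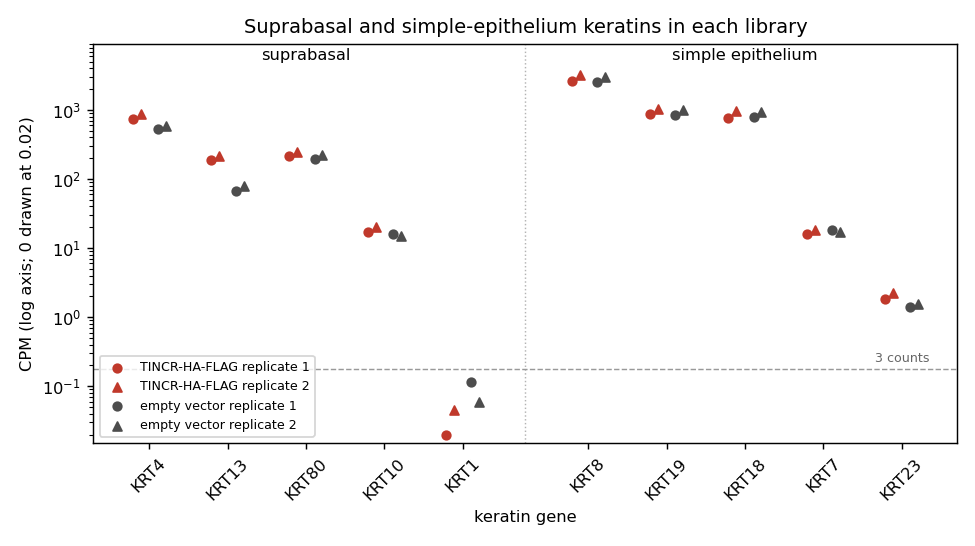
Level of each of the 10 keratins in CPM (log axis) in each library, with TINCR-HA-FLAG libraries in red and empty vector libraries in grey, and circles and triangles for replicates 1 and 2. The dashed line marks 3 counts in the library with the highest such limit. KRT13 and KRT4 lie higher in both TINCR-HA-FLAG libraries, while the points of KRT8, KRT18 and KRT19 interleave.

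Among the suprabasal keratins, KRT13 (GRCh38 chromosome 17, 41500981 to 41505705, minus strand) had 3471 and 4792 counts with TINCR-HA-FLAG, against 1165 and 1329 with the empty vector. In CPM this was 188 and 216 with TINCR-HA-FLAG, against 68.0 and 78.4 with the empty vector. Both TINCR-HA-FLAG libraries lay far above both empty vector libraries. This was a 2.76-fold difference (log2 fold change 1.47, SE 0.12, 95% interval 1.20 to 1.73, edgeR adjusted p = 0.00057). In DESeq2 the gene was called as well (adjusted p = 4.1e-20). Since RNA came from whole cultures, more cells with KRT13 and more KRT13 RNA per cell cannot be told apart.

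KRT4 (chromosome 12, 52806549 to 52814551, minus strand), which forms filaments with KRT13, was the most abundant of the suprabasal genes. It had 13506 and 19187 counts with TINCR-HA-FLAG, against 8998 and 10021 with the empty vector, or 733 and 865 CPM against 525 and 591 CPM. The groups did not overlap. The log2 fold change was 0.52 (SE 0.13, 95% interval 0.22 to 0.81) with an unadjusted p of 0.0027 and an adjusted p of 0.16 in edgeR, so KRT4 was not called there. DESeq2 called it higher (log2 fold change 0.499, adjusted p = 0.023).

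The remaining suprabasal genes did not pass either test. KRT80 (chromosome 12, 52168996 to 52192000), a type II keratin found in many epithelia and linked to cell junctions and the cortex of differentiating cells, had 212 and 248 CPM with TINCR-HA-FLAG, against 198 and 226 CPM. Its groups overlapped, and its log2 fold change was 0.12 (95% interval -0.15 to 0.39, edgeR adjusted p = 0.82). KRT10 (chromosome 17, 40818117 to 40822595), the type I keratin of suprabasal epidermis, had 16.9 and 19.9 CPM with TINCR-HA-FLAG, against 16.1 and 15.04 CPM. These groups did not overlap but lay close together, with a log2 fold change of 0.25 (95% interval -0.09 to 0.58, edgeR adjusted p = 0.65). It was 0.11 without TINCR-HA-FLAG replicate 2 and 0.36 without TINCR-HA-FLAG replicate 1. KRT10 overlaps KRT10-AS1, a gene of the opposite strand with 18.2 and 19.7 CPM in TINCR-HA-FLAG libraries, against 18.9 and 22.001 CPM. The strand setting of the counts is not known, but only 9 of 2075 windows of the KRT10 transcript also occurred in annotated transcripts of that gene.

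KRT1 (chromosome 12, 52674736 to 52680407), the type II partner of KRT10 in epidermis, had 0 and 1 counts with TINCR-HA-FLAG, against 2 and 1 with the empty vector. All libraries lay below the limit of 3 counts, which corresponds to 0.135 to 0.177 CPM and covers counting error only. No change in KRT1 was detectable at this depth. The FaDu libraries therefore held KRT10 RNA with almost no reads of its usual partner.

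The simple epithelium keratins were led by KRT8 (chromosome 12, 52897187 to 52949954, minus strand), the type II keratin of this pair. It had 2582 and 3177 CPM with TINCR-HA-FLAG, against 2538 and 3019 CPM with the empty vector. KRT18 (52948871 to 52952901, plus strand), its type I partner, had 762 and 970 CPM with TINCR-HA-FLAG, against 781 and 928 CPM. KRT19 (chromosome 17, 41523617 to 41528308, minus strand), a small type I keratin that lacks most of the tail domain, had 859 and 1032 CPM, against 843 and 1001 CPM. In these 3 genes the groups overlapped, and both replicate 2 libraries lay above both replicate 1 libraries whatever the construct.

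The log2 fold changes were 0.05 for KRT8 (95% interval -0.32 to 0.42), 0.02 for KRT18 (-0.32 to 0.36) and 0.04 for KRT19 (-0.28 to 0.36), with edgeR adjusted p of 0.96, 0.98 and 0.97. Each interval ends below that of KRT13. KRT7 (chromosome 12, 52232520 to 52252186, plus strand), a type II keratin of ducts and glands, had 16.2 and 18.4 CPM with TINCR-HA-FLAG, against 18.2 and 17.3 CPM. Its log2 fold change was -0.03 (95% interval -0.35 to 0.29, edgeR adjusted p = 0.97). KRT7 overlaps KRT7-AS, KRT86 and KRT87P, which had between 17 and 83 counts in each library. KRT23 (chromosome 17, 40922696 to 40937634, minus strand), a type I keratin of glandular epithelium, had 34 and 49 counts with TINCR-HA-FLAG, against 24 and 26. The groups did not overlap, but at this depth the interval of its log2 fold change of 0.47 ran from -0.36 to 1.31 (edgeR adjusted p = 0.75).

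Both TINCR-HA-FLAG libraries lay above both empty vector libraries in 4 of the 9 tested members (KRT13, KRT4, KRT10 and KRT23) and below them in 0. Over all genes tested, 39.6% did not overlap, 21.7% above and 17.9% below. The median log2 fold change was 0.38 for the 4 tested suprabasal keratins and 0.04 for the 5 simple epithelium keratins, beside 0.004 for all genes tested.

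**Figure D2:**
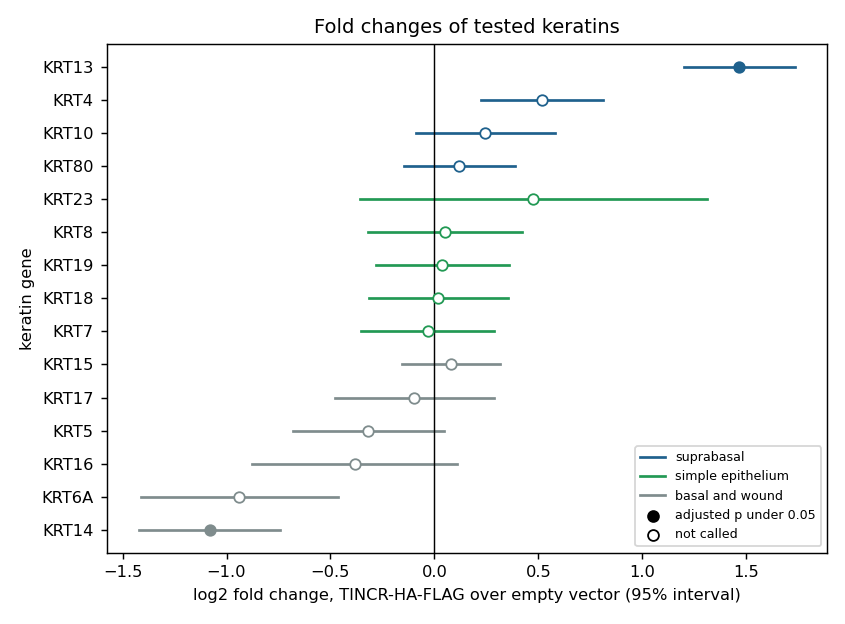
Log2 fold change of TINCR-HA-FLAG over empty vector with its 95% interval from edgeR, for the 9 tested suprabasal (blue) and simple epithelium (green) keratins and the 6 tested basal and wound keratins (grey). Filled points are called. KRT13 stands at 1.47 and KRT14 at -1.08, and the intervals of KRT8, KRT18, KRT19 and KRT7 cross 0.

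KRT8 and KRT18 have many processed pseudogenes, so the counts of these copies were summed by name. The 51 rows named as KRT8 pseudogenes took 5.04% and 5.78% of the combined KRT8 and pseudogene counts with TINCR-HA-FLAG, against 5.02% and 5.39% with the empty vector. For the 68 KRT18 pseudogenes these were 5.001% and 5.17%, against 4.62% and 5.21%. KRT19P1 was the 1 KRT19 pseudogene with counts and had 68 and 115, against 45 and 69. None of the 11, 15 and 1 pseudogene rows tested was called by edgeR (lowest adjusted p 0.73). With pseudogene counts added to their parent genes, no member gained or lost its call.

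Levels of different genes were compared per kilobase of each gene's principal transcript (RPKM on the scaled library sizes). KRT8 had 1354 ± 198 RPKM with TINCR-HA-FLAG and 1307 ± 160 RPKM with the empty vector (SD, n = 2 each). KRT19 followed with a mean of 680.3 RPKM with TINCR-HA-FLAG and 663 RPKM with the empty vector, and KRT18 with 554 ± 93.9 and 547 ± 66.2 RPKM. The ranges of KRT19 and KRT18 overlapped with TINCR-HA-FLAG (617.96 to 743 and 488 to 621 RPKM) and did not with the empty vector (607 to 720 and 500.3 to 594 RPKM). KRT4 was next with 310.2 ± 36.1 and 217 ± 18.1 RPKM.

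KRT13 and KRT80 changed places in that order. With TINCR-HA-FLAG KRT13 stood at 119 ± 11.4 RPKM above KRT80 at 59.6 ± 6.54 RPKM, and with the empty vector at 43.1 ± 4.32 RPKM below KRT80 at 54.9 ± 5.12 RPKM (SD, n = 2 each). The libraries of these genes did not overlap within either group. KRT7 (9.87 and 10.1 RPKM) and KRT10 (8.65 and 7.32 RPKM) came next and overlapped with TINCR-HA-FLAG. KRT23 followed at 1.02 and 0.738 RPKM, with KRT1 last. These levels depend on the length chosen: over all annotated exons, an alternative added after the data were seen, KRT8 had 418 RPKM and KRT13 69.4 RPKM with TINCR-HA-FLAG, and KRT10 stood above KRT7.

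Within the keratin RNA, both the suprabasal and the simple epithelium genes took a larger share with TINCR-HA-FLAG. The 29 keratin genes of the lists (the 10 described here, 8 of basal and wound type and 11 others) took 1.13% and 1.35% of all counts with TINCR-HA-FLAG, against 1.20% and 1.37% with the empty vector. Of these keratin counts, the 5 suprabasal genes made up 10.3% and 9.93% with TINCR-HA-FLAG, against 6.73% and 6.53%. The 5 simple epithelium genes made up 37.8% and 38.3%, against 34.9% and 35.6%. In summed CPM the simple epithelium genes overlapped between the groups (4221 and 5199 with TINCR-HA-FLAG, against 4182 and 4966). The suprabasal genes did not (1151 and 1349, against 807 and 911). The basal and wound keratins made up 51.8% and 51.8%, against 58.4% and 57.8%.

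The differences in share were 3.49 percentage points for the suprabasal, 2.82 for the simple and -6.31 for the basal and wound keratins. In each of them the groups did not overlap and the difference exceeded the SD within groups, which lay between 0.056 and 0.53 points. An exact permutation test over 2 against 2 libraries cannot give a two-sided p under 0.33, and that was its value for all 3. Shares of a fixed total depend on each other. The largest single difference was in KRT5, with 29.7% and 28.3% of keratin counts under TINCR-HA-FLAG, against 34.6% and 34.1%, while KRT8 had 23.1% and 23.4%, against 21.1% and 21.6%. KRT4 added 2.16 points and KRT13 1.08 points.

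**Figure D3:**
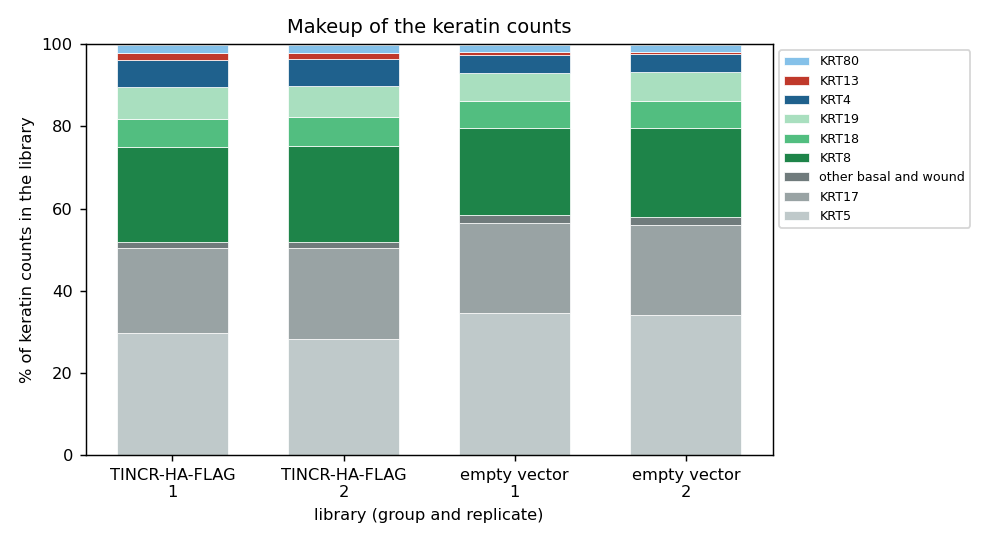
Share of the keratin counts taken by each gene, in % per library, with TINCR-HA-FLAG libraries on the left and empty vector libraries on the right. Grey stands for basal and wound, green for simple epithelium and blue and red for suprabasal keratins, and genes with smaller shares are not drawn. KRT13 (red) takes 1.69% and 1.59% in the TINCR-HA-FLAG libraries, against 0.567% and 0.562%.

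The balance within a filament pair was read from the counts of the type II gene over those of its type I partner in the same library. For KRT4 over KRT13 this ratio was 3.89 and 4.004 with TINCR-HA-FLAG, against 7.72 and 7.54 with the empty vector. The log2 ratio differed by -0.95 between the groups, with SDs of 0.029 and 0.025 (exact two-sided permutation p = 0.33, the smallest possible). For KRT8 over KRT18 it was 3.39 and 3.28 with TINCR-HA-FLAG, against 3.25 and 3.25. That pair kept nearly the same proportion in all 4 libraries, a log2 difference of 0.035. The groups did not overlap here either, and the exact two-sided permutation p was also 0.33. KRT7 over KRT19 was 0.0188 and 0.0179, against 0.0216 and 0.0173, and the groups overlapped. KRT1 had too few counts for a ratio to KRT10.

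The genes lie in a pair of clusters, the type I keratins on chromosome 17 and the type II keratins with KRT18 on chromosome 12. The 5′ end of KRT13 is 16.8 kb from that of KRT15, 22.6 kb from that of KRT19 and 81.2 kb from that of KRT14. KRT15, a basal keratin, had a log2 fold change of 0.08 (SE 0.11, edgeR adjusted p = 0.87), against 1.47 for KRT13. KRT14, the basal partner of KRT5, fell by 1.08 on the log2 scale (SE 0.15, edgeR adjusted p = 0.014). On chromosome 12, KRT3, a keratin of cornea, is 18.4 kb from KRT4 and had 36 and 43 counts with TINCR-HA-FLAG, against 55 and 51 (edgeR adjusted p = 0.52). Farther off, KRT75, a keratin of the hair follicle named after its values were seen, had 6 and 23 counts with TINCR-HA-FLAG, against 62 and 54. Its log2 fold change was -2.25 (SE 0.45, edgeR adjusted p = 0.074), and it ranged from -3.36 to -1.70 when single libraries were left out.

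**Figure D4:**
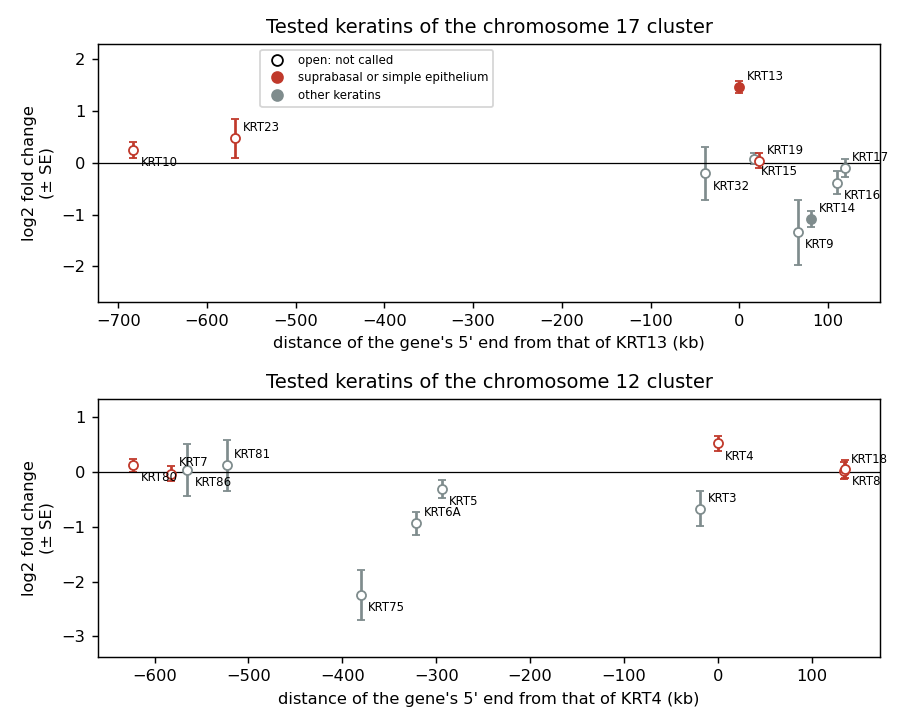
Log2 fold change (± SE) of each tested keratin against the distance of its 5′ end, in kb, from that of KRT13 (chromosome 17, top) or KRT4 (chromosome 12, bottom). Red marks suprabasal and simple epithelium keratins, grey other keratins, and filled points are called. KRT13 is high while its neighbours KRT15 and KRT19 lie near 0, and KRT14 is low. In the lower panel KRT75 stands at -2.25 and KRT6A at -0.94, both not called.

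The basal and wound keratins were counted beside these genes. Of 8, 6 were tested, and 1 was called lower (KRT14) and 0 higher, beside 0.0959% and 0.453% of all genes tested. Of the 6, 5 had a negative log2 fold change, with a median of -0.35. Negative changes made up 9253 of all 18771 genes tested. DESeq2 called 2 lower, KRT14 and KRT6A, and 0 higher. KRT6A, a keratin of wounded epithelium named after its values were seen, had 94 and 159 counts with TINCR-HA-FLAG, against 219 and 186. Its log2 fold change was -0.94 in edgeR, with an adjusted p of 0.11, and its DESeq2 adjusted p was 0.039. The edgeR log2 fold change of KRT6A ranged from -1.22 to -0.72 when single libraries were left out. KRT5, the main basal type II keratin, had 3314 and 3837 CPM with TINCR-HA-FLAG, against 4156 and 4759 CPM (edgeR adjusted p = 0.57). KRT17, a keratin of wounded and hyperproliferative epithelium, averaged 2656 ± 494 CPM with TINCR-HA-FLAG and 2840 ± 324 CPM with the empty vector (SD, n = 2 each). Of 11 other epidermal, mucosal and simple keratins, 2 passed the filter (KRT3 and KRT9) and were not called.

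Other genes of mucosal suprabasal cells were not called with KRT13. Of 26 such genes 12 passed the filter, and 0 were called by edgeR or DESeq2. At an unadjusted edgeR p under 0.05, 2 were higher and 0 lower, beside 1104 and 809 of all 18771 genes tested. The median log2 fold change of these mucosal genes was 0.10. Their most expressed members were ANXA1, an annexin abundant in oesophageal epithelium, with 385 ± 32.04 CPM with TINCR-HA-FLAG and 338 ± 23.9 CPM with the empty vector, and EMP1, a membrane protein of epithelium, with 159 ± 11.01 and 169 ± 19.7 CPM (SD, n = 2 each). RHCG, an ammonium transporter of oesophageal mucosa named here after its values were seen, had 87 and 99 counts with TINCR-HA-FLAG, against 32 and 37 (log2 fold change 1.18, edgeR adjusted p = 0.15). IVL, which encodes the envelope protein involucrin and was also picked after its values were seen, had 6 and 3 counts, against 10 and 4.

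Of 20 epidermal suprabasal genes 8 passed the filter, and 0 were called by edgeR or DESeq2, with a median of -0.12. At an unadjusted edgeR p under 0.05, 0 were higher and 1 lower, beside 1104 and 809 of all 18771 genes tested. KLK5, a protease of the shedding layers, had 168 ± 31.3 CPM with TINCR-HA-FLAG and 219.8 ± 21.8 CPM with the empty vector (SD, n = 2 each, edgeR adjusted p = 0.36). Its log2 fold change was -0.39 and ranged from -0.60 to -0.20 when single libraries were left out. DMKN, a secreted protein of suprabasal epidermis, had 127 and 139 CPM with TINCR-HA-FLAG, against 134 and 131 CPM. LORICRIN, chosen after its values were seen, had 0 counts in all 4 libraries, which allows up to 3 counts in each.

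Among genes of simple epithelium other than keratins, CEACAM6 and AGR2 rose. Of 20 such genes 19 were tested, and 2 were called higher and 0 lower, beside 0.453% and 0.0959% of all genes tested. At an unadjusted edgeR p under 0.05, 5 were higher and 0 lower, beside 1104 and 809 of all 18771 genes. In this list 14 changes were positive, with a median of 0.23 on the log2 scale. Positive changes made up 9518 of all 18771 genes tested. CEACAM6, an adhesion glycoprotein, had 171 and 219 counts with TINCR-HA-FLAG, against 33 and 36 (edgeR adjusted p = 0.0040). AGR2, a disulfide isomerase of secretory cells, had 232 and 254 counts, against 60 and 89 (edgeR adjusted p = 0.025). The difference between these genes and the keratins was not tested.

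The 21 linkers and binding proteins of keratin filaments were all tested, and 0 were called. At an unadjusted edgeR p under 0.05, 2 were lower and 0 higher, beside 809 and 1104 of all 18771 genes tested. DESeq2 called 1 lower, beside 1.01% of all genes in either direction. This was SFN, also a squamous marker and named after its values were seen. It had 142 and 190 CPM with TINCR-HA-FLAG, against 253 and 291 CPM (log2 fold change -0.71, edgeR adjusted p = 0.074, DESeq2 adjusted p = 0.00089). The log2 fold change was negative in 19 of the 21 linkers, with a median of -0.10. Over all 18771 genes tested, 9253 were negative and 9518 positive. DSP, the desmosomal plakin that anchors keratin, had 753 and 667 CPM with TINCR-HA-FLAG, against 759 and 769 CPM. JUP, which encodes plakoglobin, averaged 639 ± 95.7 CPM with TINCR-HA-FLAG and 644 ± 76.9 CPM with the empty vector (SD, n = 2 each).

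Of 31 transcription factors linked to these keratins 30 were tested, and 2 were called higher and 0 lower, beside 0.453% and 0.0959% of all genes tested. At an unadjusted edgeR p under 0.05, 5 factors were higher and 1 lower, beside 1104 and 809 of all 18771 genes. Changes were positive in 17 and negative in 13, with a median of 0.03, beside 9518 and 9253 over all genes tested. RARB, a retinoic acid receptor, had 215 and 268 counts with TINCR-HA-FLAG, against 90 and 57 (log2 fold change 1.46, SE 0.23, edgeR adjusted p = 0.025). SOX2, a factor of squamous progenitors, had 437 and 660 counts, against 190 and 258 (edgeR adjusted p = 0.041). In both genes the groups did not overlap. Without the filter on low counts SOX2 was no longer called (edgeR adjusted p = 0.105).

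**Figure D5:**
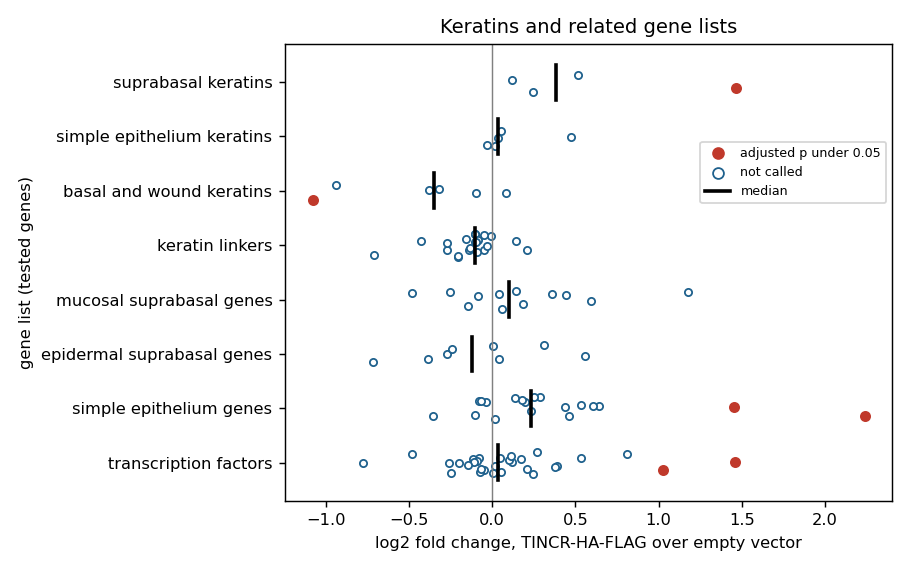
Log2 fold change of TINCR-HA-FLAG over empty vector for the tested genes of 8 lists, with a bar at each list's median and called genes in red. The bar of the suprabasal keratins stands at 0.38 and that of the basal and wound keratins at -0.35, while the bars of the other lists lie between -0.12 and 0.23.

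The genes whose pattern over the 4 libraries was most like that of KRT13 were sought by the distance between log2 CPM values centred on the empty vector mean, among 11623 genes. They were CDH5, which encodes vascular endothelial cadherin (distance 0.055), IFI27, an interferon-induced gene (0.136), MGAM, which encodes maltase-glucoamylase (0.211), CYP7B1, a steroid hydroxylase gene (0.224), and DNM1, a dynamin gene (0.320). CDH5 had 637 and 857 counts with TINCR-HA-FLAG, against 209 and 232, a fold change of 2.83 (edgeR adjusted p = 0.0012). MGAM was no longer called without the filter on low counts or without empty vector replicate 1 (edgeR adjusted p = 0.059 and 0.056). No keratin was among these 5. With 4 libraries a small distance says only that the fold changes are alike.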

How the data were processed

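The authors deposited raw counts for 60649 Ensembl genes. Build GRCh38, DESeq2 1.32.0, STAR 2.7.9a and bcl2fastq 2.20.0.422 are named, without roles, in the submitters' processing notes. RNA was extracted with an RNeasy kit and libraries made with a NEBNext Ultra kit, per the labels' protocols. The sources used here do not give the counting tool, strand setting or annotation. Columns were matched to samples by cell line, construct and replicate number, and 12 other library columns were not used. Of these, 4 carry the same cell line and construct names with the numbers 3 and 4 and match no sample label, so the values here describe the 4 matched columns only. Symbols were found for 60507 genes by Ensembl identifier. Positions, transcripts and sequences come from GENCODE release 29 on GRCh38, matched by identifier without version, so gene models may differ from those counted.

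Counts were filtered with filterByExpr, normalized by TMM and tested with edgeR 4.0.16 (quasi-likelihood, robust, non-legacy dispersion) in R 4.3.3, with Benjamini-Hochberg adjustment over 18771 genes. The fit was also run on simulated counts. These were drawn independently for each library, so they could not test an effect shared by same-numbered libraries. Alternatives were DESeq2 1.42.0, other scalings and filters, TINCR left out, the legacy dispersion, a replicate block, added pseudogene counts and each library left out. Replicates differed by more than counting noise (chi-square per degree of freedom 14.3 and 10.5), and each library was kept as 1 sample.

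The genes and lists were chosen with earlier results of these data known. The rule for named genes takes the 10 keratins, TINCR, the called genes of each list, the 2 most expressed tested genes of a list with fewer than 2 called, and the 5 genes nearest to each called keratin. From some lists fewer of these are named.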

Additional observations from a re-analysis of the deposited data

How the results depend on the processing

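KRT13 stayed called higher under all 13 alternatives, with a log2 fold change of 1.33 to 1.58 and an adjusted p of at most 0.0025. The 8 other tested keratins were not called lower under any. DESeq2 and the replicate block each called 2 members higher, KRT13 and KRT4 (for KRT4 log2 fold change 0.499 and 0.516, adjusted p = 0.023 and 1.07e-25), and every other setting called 1. Without single libraries KRT4 had an adjusted p of 0.089 to 0.83. The replicate numbers are not said to mark a shared batch. The block leaves fewer residual degrees of freedom than the 2 of the main fit, so its very small p-values rest on little information about spread. Over all genes, 1317 were higher and 1316 lower with the block, and the deviations of same-numbered libraries correlated at r = 0.37 over only 2 pairs. DESeq2 called 131 higher and 59 lower, against 85 and 18 by edgeR, and no filter on low counts 47 and 6. Leaving out single libraries gave 69 to 226 higher and 45 to 160 lower, and 1 and 0 among the members. Small fold changes turned sign when TINCR-HA-FLAG replicate 2 (KRT80, KRT8, KRT18, KRT19, DMKN), empty vector replicate 1 (the same 5), TINCR-HA-FLAG replicate 1 (KRT7, KRT17, JUP) or empty vector replicate 2 (KRT17, KRT15, EMP1, DMKN, JUP) was left out, and none of these was called. Over the libraries left out, log2 fold changes ranged from -0.014 to 0.23 for KRT80, -0.11 to 0.20 for KRT8, -0.17 to 0.19 for KRT18, -0.12 to 0.17 for KRT19, -0.14 to 0.061 for KRT7, 0.11 to 0.36 for KRT10, 0.32 to 0.59 for KRT23, -0.31 to 0.088 for KRT17, -0.0012 to 0.13 for KRT15, -0.24 to 0.042 for EMP1, -0.062 to 0.072 for DMKN and -0.18 to 0.14 for JUP. DMKN also turned with DESeq2 (-0.012), RLE size factors (-0.012) and added pseudogene counts (-0.0085), and JUP with library totals (0.0082). KRT14, CEACAM6, AGR2 and RARB stayed called under all 13 alternatives. The block also called KRT5, KRT6A, KRT75, ANXA1, RHCG and KLK5, and added pseudogene counts called KRT75 (adjusted p = 0.048). Per kilobase of exon, the suprabasal share differed by 3.06 points. The causes were not tested. Depth limits KRT1 and KRT23.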
